A study of Homo sapiens with 12 samples.

Results

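The cadherin superfamily genes described here are the classical cadherins and other CDH genes, the clustered and non-clustered protocadherins, and the giant FAT and Dachsous cadherins. They were chosen by symbol: names of the form CDH with a number, PCDH with a number (PCDH11X and PCDH11Y left out), the names of the PCDHA, PCDHB and PCDHG clusters, and FAT1 to FAT4, DCHS1 and DCHS2. This gave 93 genes of the 27064 symbols in the count tables of both lines. They comprise 5 classical type I cadherins, 13 classical type II cadherins, 5 other CDH genes, 6 FAT and Dachsous genes, 11 non-clustered protocadherins, and 15 alpha, 16 beta and 22 gamma protocadherins. 

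Cadherins are calcium-dependent adhesion receptors, and the tails of the classical type I and type II members hold catenins that link the junction to actin. The clustered protocadherins lie in tandem on human chromosome 5. Each variable exon has its own promoter, usually with a conserved element around a CGCT core to which CTCF can bind, and within the alpha and within the gamma cluster the variable exons are spliced to shared constant exons. Fat and Dachsous form a heterophilic pair that acts upstream of the Hippo pathway in Drosophila, where the kinase four-jointed modifies both. 

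Poly(A) RNA had been sequenced as paired 100-base reads from NCI-H226 (H226), a human mesothelioma line, and ACHN, a human kidney cancer line, both described by the submitters as deficient in NF2, an activator of the Hippo kinases. There were 4 groups of 3 libraries: H226 with 100 nM SWTX-143 overnight, H226 with DMSO, ACHN with 100 nM SWTX-143 overnight, and ACHN with DMSO. SWTX-143 blocks TEAD transcription factors irreversibly, per the submitters. The study asked how the compound changes the transcriptome of these lines. Nothing in the labels tells whether libraries of 1 group are separate cultures. The p-values therefore reflect the spread among these samples alone, and that spread may be technical. In bulk RNA, fewer cells with a transcript and less transcript per cell cannot be told apart.

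The H226 libraries held 9690980 to 11262663 counts each and the ACHN libraries 10113810 to 11206457. CPM are counts scaled to library size in the usual way. SD and SE refer to n = 3 libraries per group, and a gene is called where the adjusted p of edgeR's quasi-likelihood test was under 0.05. H226 SWTX-143 replicate 3 stood apart from replicates 1 and 2 of its group, with a chi-square per degree of freedom of 3.12 and 3.42, against 1.44 between those 2 libraries. The summed mesothelial markers were 3678 to 4488 CPM in the H226 libraries and 188 to 224 CPM in the ACHN libraries, and the kidney tubule markers 9.25 to 19.3 CPM in H226 and 711 to 775 CPM in ACHN. EMX2, LRP2 and UMOD were at 0 in both ACHN groups. Of 4 immune markers PTPRC was at 0 in all libraries, but the 4 summed to 10.4 to 17.0 CPM in H226 and 42.7 to 65.4 CPM in ACHN. With SWTX-143, 1 of the 2 tested was called higher in H226 and the 1 tested was called higher in ACHN. NF2 had 1 count over the 3 H226 SWTX-143 libraries and 0 over the 3 H226 DMSO libraries, while ACHN held NF2 RNA at 94.8 ± 5.27 CPM with SWTX-143 and 111 ± 0.294 CPM with DMSO. The TEAD target CTGF was lower with SWTX-143 in H226 (log2 fold change −2.53 ± 0.08) and in ACHN (−2.39 ± 0.06).

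The promoter elements of the clustered protocadherins that were called higher under SWTX-143 are shown first, because these genes make up most of the calls described below. Sequences are RefSeq promoters of GRCh38.p14, which span 250 bases before to 50 bases after each start site. A 30-base window is printed on the plus strand for each called cluster gene whose core lay in the plus strand before the start site with the whole window in that stretch. Capitals mark the 5-base core CGCTG. PCDHGA7 was called in ACHN and the other 11 in H226.
PCDHA10, chr5:140855841-140855870: taaagccaccggatgtCGCTGtcgtccaca
PCDHB2, chr5:141094544-141094573: aagagacgcggggtggCGCTGcagccttag
PCDHB9, chr5:141187074-141187103: ggaagccacaaggtggCGCTGcagactgaa
PCDHB13, chr5:141213865-141213894: tgaggacgcgtggtggCGCTGcaggataag
PCDHGB1, chr5:141350025-141350054: gacaacctctgggcgcCGCTGtcgaccaaa
PCDHGA4, chr5:141354960-141354989: ttaagactctgggtgtCGCTGttcaccaat
PCDHGB2, chr5:141359921-141359950: gaaaacctctgagcgtCGCTGttggtcaaa
PCDHGA6, chr5:141373835-141373864: ttaggactctaagcgtCGCTGttgaccaac
PCDHGA7, chr5:141382649-141382678: taaggactcacagcgcCGCTGttcaccaac
PCDHGB6, chr5:141407924-141407953: cggagcctctgggcgcCGCTGtcggccagt
PCDHGA10, chr5:141412931-141412960: ttaggactctgagcgcCGCTGttcacctac
PCDHGA11, chr5:141420972-141421001: aatgggctctaggcgcCGCTGctcaccaat

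The 3 printed beta windows share the letters ggtggCGCTGcag, and the printed gamma windows carry a c or t on each side of the core. Neither feature is particular to called genes. The same beta letters lie in the windows of PCDHB10, PCDHB12 and PCDHB15, which were not tested, while PCDHB3 and PCDHB7 differ after the core. PCDHGC3 and PCDHGA2, not called, carry the gamma pattern. The motif GNCGCTG, searched on both strands and chosen after the promoter letters had been seen, was in the promoters of 36 of the 47 clustered protocadherins with an entry (76.6%), against 35.9% of the 16578 genes of the tables with a promoter. It was in 6 of 13 alpha, 12 of 14 beta and 18 of 20 gamma promoters, and in 10 of 24 promoters of members outside the clusters (41.7%). GGAATG, the core of the TEAD motif, was in 11 of the 71 members with a promoter (15.5%), against 15.9% of all genes, also on both strands. The 2 motifs can share at most 1 terminal base. Among the 8 members called lower in either line, 3 had a promoter entry (FAT1, CDH4 and CDH8), and GGAATG was in 0 of these 3 windows and GNCGCTG in 3 of 3.

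At baseline the H226 DMSO libraries held more clustered protocadherins than the ACHN DMSO libraries. More than 3 pooled counts were found for 60 of the 93 members in H226 and for 41 in ACHN, of which 35 were shared, 25 were above this floor in H226 alone and 6 in ACHN alone. Alpha, beta and gamma genes above the floor numbered 6, 11 and 17 in H226 and 0, 8 and 7 in ACHN. Outside the clusters the numbers of genes above the floor were similar in the 2 lines, while the levels of single genes differed, as given below. Type I, type II, other CDH, FAT and Dachsous, and non-clustered genes numbered 4, 7, 3, 4 and 8 in H226. In ACHN they numbered 4, 6, 5, 4 and 7. The same count over all genes was not made. Counts of 0 over the 3 libraries were found for 20 members in H226 and 30 in ACHN, where 3 pooled counts correspond to 0.0994 CPM in H226 and 0.0903 CPM in ACHN. In all 4 groups 22 members stayed at or under 3 pooled counts, and 9 had no count in any library. The 93 members summed to 2242 CPM in H226 DMSO and 1396 CPM in ACHN DMSO.

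Divided by exon length, CDH2 (N-cadherin) led in H226 at 138 ± 0.370 CPM per kb, followed by CDH11 (OB-cadherin, a type II cadherin of mesenchyme) at 46.5 ± 0.543 and FAT1 at 30.2 ± 3.55. CDH4 (R-cadherin) at 16.9 ± 0.917 CPM per kb, CDH24 at 12.002 ± 0.563 and CDH6 (K-cadherin) at 9.84 ± 0.331 came next. These neighbours were separated by more than their SD, which does not cover the choice of length. The union of exons used here was 12379 bases for CDH6 and 13381 for CDH11, against 8476 and 6874 in the longest transcript. For CDH24 it was 3748 against 3552 bases, and by longest transcript CDH6 lay above CDH24. Below them PCDHGC3 had 5.06 ± 0.242 CPM per kb and FAT4 1.57 ± 0.242, and PCDHAC2, PCDHGB7, PCDHB2 and PCDHGA12 lay between 1.29 and 1.39 CPM per kb and could not be ordered beyond their spread. In ACHN the order was FAT1 at 49.1 ± 4.03 CPM per kb, CDH2 at 39.6 ± 1.44, CDH1 (E-cadherin) at 25.1 ± 0.947 and PCDH20 at 17.3 ± 0.884. CDH24 at 5.99 ± 0.524 followed. By union length, PCDHGC3 at 3.96 ± 0.128 and CDH16 (Ksp-cadherin, a cadherin of kidney tubule epithelium) at 3.92 ± 0.103 did not differ beyond their SD. At least 1 CPM per kb was reached by 13 members in H226 DMSO and 11 in ACHN DMSO, and 95.8% of the exon bases of PCDH20 are shared with the annotated gene AL592490.1, so its level cannot be assigned to PCDH20 alone.

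**Figure D1:**
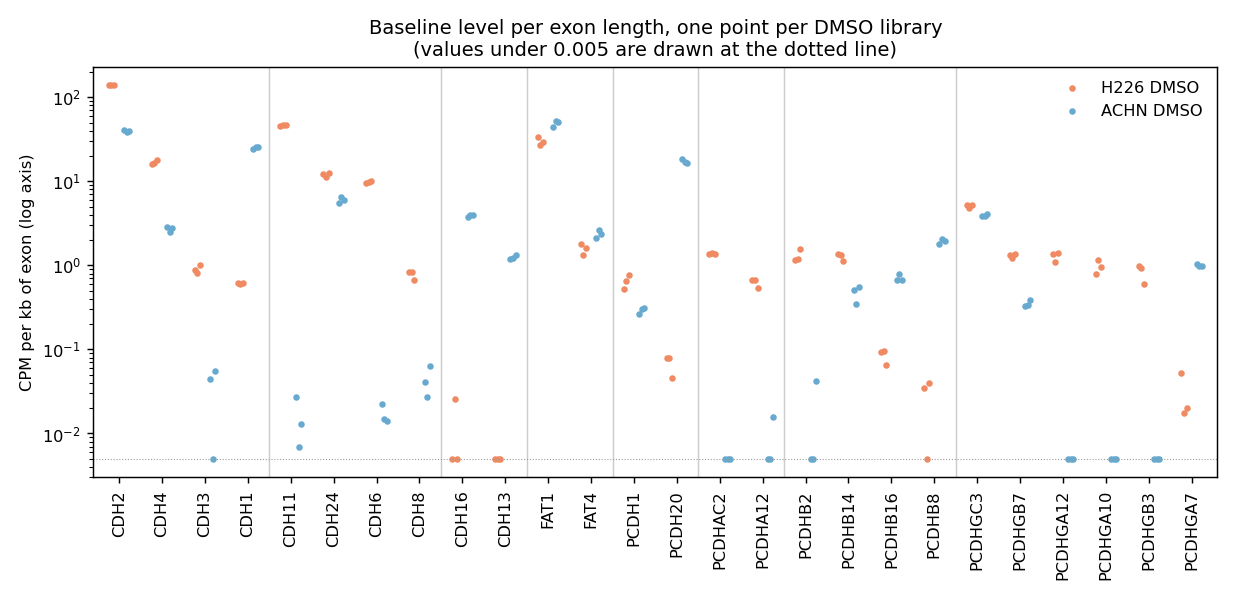
Baseline levels of the 26 members with at least 0.5 CPM per kb in either line. The y axis is CPM per kb of exon on a log axis, with 1 point per DMSO library, H226 left of ACHN for each gene; grey lines separate the subfamilies and values under 0.005 are drawn at the dotted line. CDH11 and CDH6 are high in H226 alone, CDH1, CDH16 and PCDH20 are high in ACHN alone or nearly so, and FAT1, CDH24 and PCDHGC3 are present in both.

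The lines differed in the classical cadherins they carried. Of the per-length sum over the 18 type I and type II genes in DMSO, CDH2 made up 61.2 ± 0.424% in H226 and 53.7 ± 1.73% in ACHN. The second cadherin was CDH11 in H226, with 20.6 ± 0.221%, and CDH1 in ACHN, with 34.0 ± 1.26%. These shares depend on the length used, here the union of exons, and the SD does not cover that. CDH1 made up 0.271 ± 0.00382% in H226. Of 46 members tested at baseline, 29 were called higher and 15 lower in H226 DMSO than in ACHN DMSO. Over all 14664 tested genes 84.4% were called, 42.2% higher and 42.2% lower, so a call by itself does not set these genes apart.

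CDH11 had 614, 629 and 624 CPM in H226 DMSO, against 0.366, 0.0929 and 0.174 CPM in ACHN DMSO (log2 fold change, H226 over ACHN, 11.45 ± 0.10, adjusted p = 1.19e-84). CDH6 had 118, 121 and 126 CPM in H226 DMSO, against 0.275, 0.186 and 0.174 CPM in ACHN DMSO (9.10 ± 0.14, adjusted p = 3.92e-69). Both genes were at 3 or fewer counts in most ACHN DMSO libraries and among the most abundant cadherins of H226. CDH1 ran the other way, with 3.77, 3.71 and 3.85 CPM in H226 DMSO, against 149, 157 and 160 CPM in ACHN DMSO (−5.36 ± 0.09, adjusted p = 3.69e-68). CDH16 had 1 count over the H226 DMSO libraries, against 13.9, 14.4 and 14.7 CPM in ACHN DMSO, which makes it 433-fold lower in H226 (exact 95% counting interval 77.3 to 17130; adjusted p = 3.27e-37). CDH13 (T-cadherin, held in the membrane by a lipid anchor) had no count in H226 DMSO and 13.3, 13.8 and 14.7 CPM in ACHN DMSO, so it was at least 140-fold lower in H226 when 3 counts over the group are taken as the floor. CDH2 was 1.80 ± 0.04 higher on the log2 scale in H226 DMSO (683, 686 and 687 CPM) than in ACHN DMSO (204, 189 and 196 CPM; adjusted p = 4.13e-56). CDH4, CDH24, CDH3 (P-cadherin) and CDH8 were also called higher in H226, by log2 differences of 2.63, 1.00, 4.66 and 4.11. The line and anything that differed in its handling cannot be told apart.

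FAT1 and FAT4 were present at high read counts in both lines and lower in H226. FAT1, which binds actin regulators of the Ena/VASP family and SCRIB, had 549, 435 and 480 CPM in H226 DMSO, against 721, 846 and 815 CPM in ACHN DMSO (log2 −0.70 ± 0.16, adjusted p = 0.00275). FAT4, a receptor for Dachsous, had 29.4, 21.6 and 26.6 CPM in H226 DMSO, against 34.8, 42.8 and 38.9 CPM in ACHN DMSO (−0.59 ± 0.17, adjusted p = 0.00845). The groups did not overlap for either gene. FAT2 was lower in H226 DMSO as well (−2.36 ± 0.53, adjusted p = 3.7e-05) and had 41 pooled counts in ACHN DMSO. FAT3, DCHS1 and DCHS2 had 23 or fewer pooled counts in each DMSO group and were not tested.

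The protocadherin clusters were used differently. The 15 alpha genes together had 441 counts over the 3 H226 DMSO libraries and 4 over the 3 ACHN DMSO libraries. PCDHAC2, the last variable exon of the alpha cluster, held 265 of the 441 counts, and it was at least 97.1-fold higher in H226 DMSO than in ACHN DMSO, which had 0. PCDHGA10, PCDHGA12 and PCDHGB3 were at 0 in ACHN DMSO too and at least 71.5-fold, 68.9-fold and 44.1-fold higher in H226. In the opposite direction, PCDHB8 had 2 pooled counts in H226 DMSO and 175 in ACHN DMSO (79.6-fold lower in H226, exact 95% counting interval 21.7 to 662, adjusted p = 1.28e-22), and PCDHGA7 had 5 and 180 (log2 −4.94 ± 0.36, adjusted p = 3.06e-22). PCDHGC3, the most abundant protocadherin of the gamma cluster in both lines, was 0.35 ± 0.08 higher on the log2 scale in H226 DMSO (28.4, 26.0 and 28.1 CPM) than in ACHN DMSO (20.97, 21.3 and 22.3 CPM; adjusted p = 6.68e-05). Because of the shared constant exons, 21.3% to 63.1% of the exon bases of the alpha genes and 27.6% to 64.4% of those of the gamma genes belong to more than 1 gene, and the authors' treatment of such reads is not given in the sources used here. For the beta genes, which have no constant exons, the share was 0% to 24.9%.

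More members were called under SWTX-143 in H226 than in ACHN, as was the case over all genes. In H226, 35 members passed the filter on low counts, and 18 were called higher and 4 lower with SWTX-143 than with DMSO. Over all 13484 tested genes in H226 40.7% were called, 19% higher and 21.6% lower. Under upper-quartile scaling the calls over all H226 genes were 3283 higher and 2324 lower, against 2567 and 2919 with TMM, and each of the 22 called members was still called. The members' median log2 fold change was 0.50, against −0.00 over all genes. Some of the 35 passed the filter only through their treated libraries, with 0 DMSO libraries at its cutoff for PCDH9, PCDHB9 and PCDHGA11. This median and the split of calls in H226 are therefore a description and do not by themselves support a direction. In ACHN, 23 members passed and 2 were called higher and 4 lower, with a median of 0.08. Over all 13483 tested genes in ACHN 17.8% were called, 8.43% higher and 9.37% lower, and the median was 0.00. With upper-quartile scaling the ACHN calls were 1450 higher and 1028 lower, against 1137 and 1264. Of the 12 members tested in both lines, 0 were called in both by edgeR and 0 by DESeq2, 1 had an unadjusted p under 0.05 in both (PCDHGC3, with opposite signs), and 47 members were tested in neither. DESeq2 called 12 of the 81 members it fitted in H226, 8 of them higher. Over all 19672 genes it fitted there, 1665 were called higher and 2093 lower. Of the 12, 11 were among the 22 called by edgeR, and the other was CDH22.

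**Figure D2:**
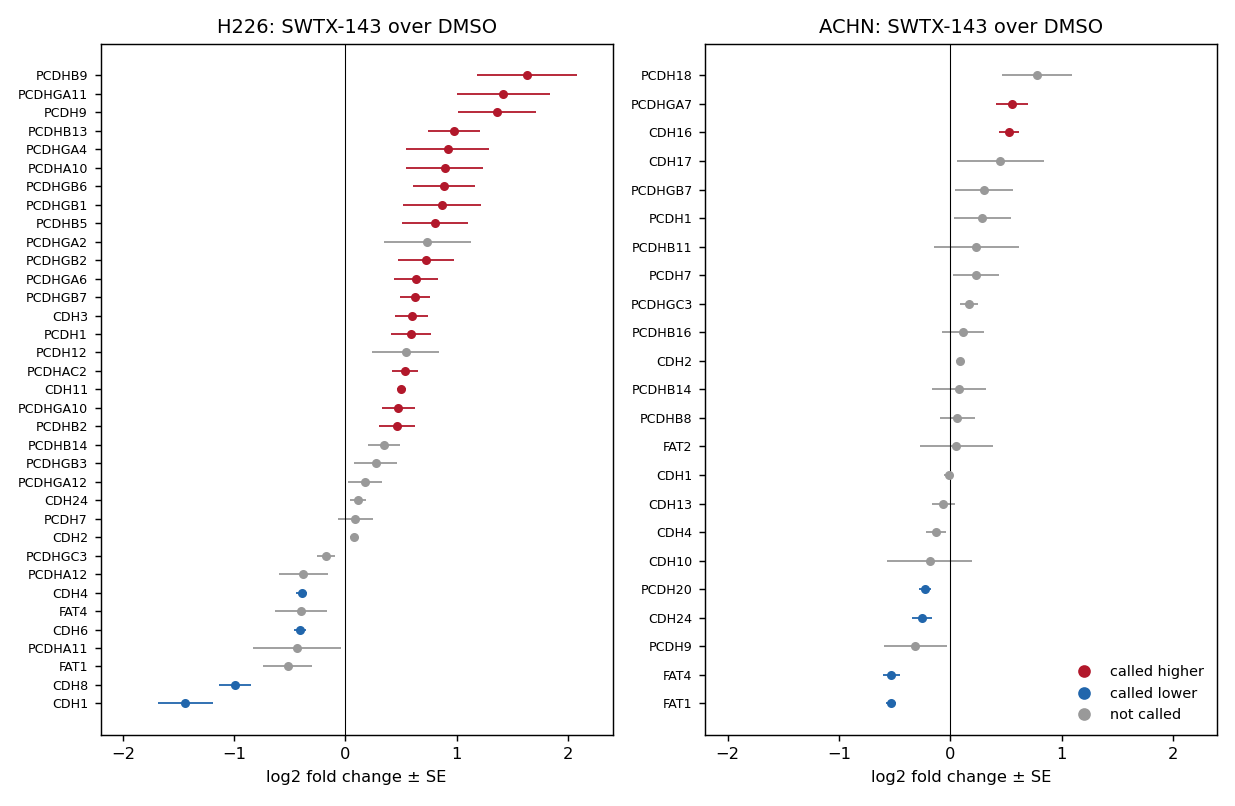
Effect of SWTX-143 on each tested member, as log2 fold change over DMSO on the x axis with SE bars, H226 on the left (35 members) and ACHN on the right (23 members). Red points were called higher, blue points lower and grey points not called. In H226 the 18 red points are mostly clustered protocadherins, and the 4 blue points are CDH1, CDH8, CDH6 and CDH4.

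Among the classical cadherins of H226, CDH11 rose and CDH4, CDH6 and CDH8 fell while CDH2 was not called. CDH11 had 912, 890 and 855 CPM with SWTX-143, against 614, 629 and 624 CPM with DMSO (log2 fold change 0.50 ± 0.04, 1.42-fold, adjusted p = 2.4e-16). All 3 treated libraries lay above all 3 DMSO libraries by more than 200 CPM, and 48.4% of tested genes in H226 had groups that did not overlap. CDH2 had 745, 740 and 695 CPM with SWTX-143, against 683, 686 and 687 CPM with DMSO (0.08 ± 0.04, adjusted p = 0.115), and was called higher under upper-quartile scaling (adjusted p = 0.00738) and without SWTX-143 replicate 3 (0.0191). Of the classical per-length sum, CDH11 made up 26.6 ± 0.320% with SWTX-143 and 20.6 ± 0.221% with DMSO. CDH2 made up 59.0 ± 0.751% with SWTX-143 and 61.2 ± 0.424% with DMSO. Mesothelial markers moved with the treatment too, with 6 of 9 tested called higher and 1 lower in H226, against 19% and 21.6% of all tested genes. Their summed level was 4185 to 4488 CPM with SWTX-143 and 3678 to 3850 CPM with DMSO, and their part in these results was not tested.

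CDH4 had 93.4, 98.1 and 93.1 CPM in SWTX-143-treated H226, against 118, 122 and 131 CPM in DMSO (−0.39 ± 0.05, adjusted p = 4.72e-09). CDH6 had 89.3, 92.4 and 95.3 CPM with SWTX-143, against 118, 121 and 126 CPM with DMSO (−0.41 ± 0.05, adjusted p = 1.42e-09). The treated libraries of both genes lay below every DMSO library, by similar amounts. CDH8, a type II cadherin best known from neurons, had 5.53, 5.58 and 4.96 CPM with SWTX-143, against 11.2, 11.2 and 9.14 CPM with DMSO (−0.99 ± 0.14, 1.99-fold lower, adjusted p = 5.82e-08).

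CDH1 and CDH3, at far lower levels in H226, moved apart. CDH1 had 1.68, 1.58 and 0.936 CPM with SWTX-143, against 3.77, 3.71 and 3.85 CPM with DMSO (−1.44 ± 0.25, 2.71-fold lower, adjusted p = 3.73e-06), which rests on 44 and 114 pooled counts. CDH3 had 8.89, 8.64 and 8.05 CPM with SWTX-143, against 5.47, 5.04 and 6.38 CPM with DMSO (0.60 ± 0.15, adjusted p = 0.000746). Neither pair of groups overlapped. CDH24 had 44.0, 47.7 and 54.9 CPM with SWTX-143, against 45.7, 42.6 and 46.7 CPM with DMSO, and was not called (0.11 ± 0.07, adjusted p = 0.198). CDH22, singled out after its values were seen, did not pass the filter in H226 and had 34 pooled counts with SWTX-143 and 9 with DMSO. It was called by DESeq2, with no filter, and without any one of DMSO replicates 1, 2 and 3 or SWTX-143 replicate 2.

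**Figure D3:**
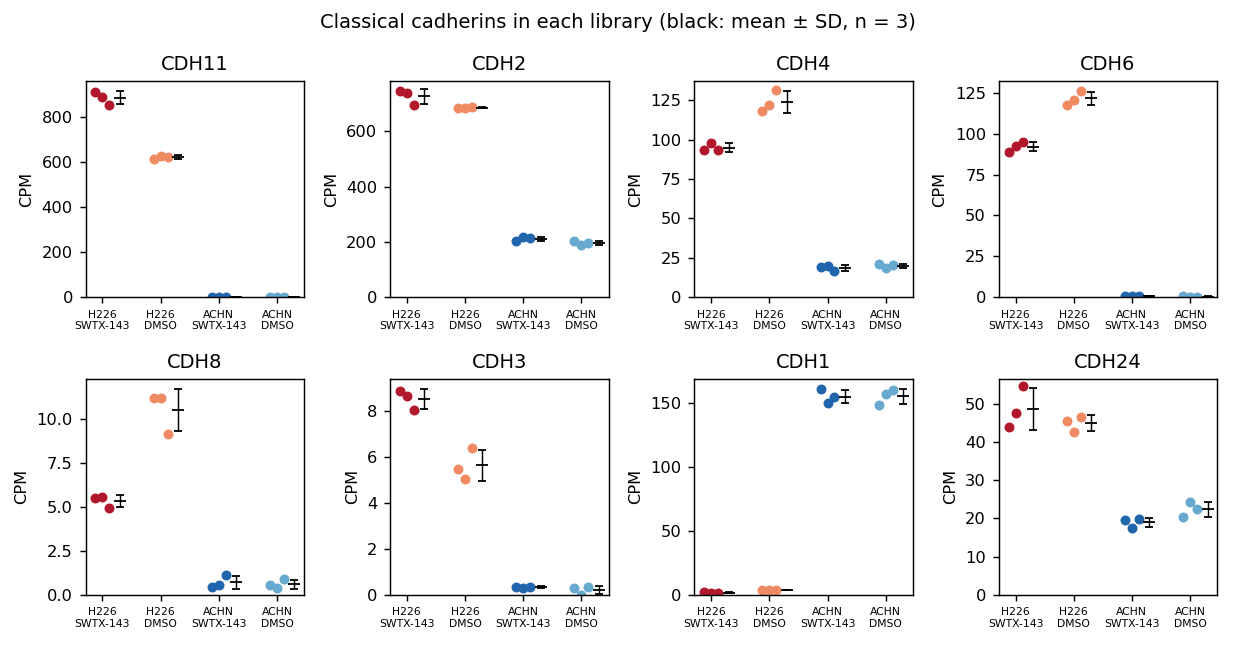
CPM of 8 classical cadherins in each library, with SWTX-143 left of DMSO in each line. Coloured points are libraries and black bars are the mean and SD of 3; each panel has its own linear axis from 0. CDH11 is higher and CDH4, CDH6, CDH8 and CDH1 are lower with SWTX-143 in H226, and CDH1 in ACHN overlaps between treatments.

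In ACHN the main classical cadherins were not called. CDH1 had 161, 150 and 154 CPM with SWTX-143, against 149, 157 and 160 CPM with DMSO (−0.02 ± 0.04, adjusted p = 0.854), and the groups overlapped. CDH2 had 203, 216 and 213 CPM with SWTX-143, against 204, 189 and 196 CPM with DMSO (0.09 ± 0.04, adjusted p = 0.131), and was called higher under upper-quartile scaling (0.0419). CDH24, a type II cadherin, was called lower, with 19.5, 17.6 and 19.9 CPM with SWTX-143, against 20.4, 24.3 and 22.6 CPM with DMSO (−0.25 ± 0.09, adjusted p = 0.0359). This call was lost under upper-quartile scaling (adjusted p = 0.0632), under DESeq2 (0.187) and without any one of DMSO replicate 2 (0.227), DMSO replicate 3 (0.0948), SWTX-143 replicate 1 (0.0685) or SWTX-143 replicate 2 (0.159), by the same quasi-likelihood test.

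CDH16 was the cadherin that rose in ACHN. It had 20.8, 20.03 and 21.7 CPM with SWTX-143, against 13.9, 14.4 and 14.7 CPM with DMSO (0.53 ± 0.09, 1.44-fold, adjusted p = 1.36e-05). The groups were well separated, and 31.7% of tested genes in ACHN had groups that did not overlap. CDH13 averaged 13.5 CPM with SWTX-143 and 13.9 CPM with DMSO and was not called (−0.06 ± 0.10, adjusted p = 0.745). The summed kidney tubule markers overlapped between the ACHN treatments, at 723 to 775 CPM with SWTX-143 and 711 to 741 CPM with DMSO, and LHX1 was the marker of that list called (higher, 1 of 4 tested).

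FAT1 and FAT4 fell in ACHN. FAT1 had 569, 539 and 559 CPM with SWTX-143, against 721, 846 and 815 CPM with DMSO (−0.53 ± 0.04, 1.44-fold lower, adjusted p = 2.64e-10). FAT4 had 25.5, 29.8 and 26.5 CPM with SWTX-143, against 34.8, 42.8 and 38.9 CPM with DMSO (−0.53 ± 0.08, adjusted p = 2.77e-07). Neither gene's groups overlapped. In H226 FAT1 had 304, 285 and 440 CPM with SWTX-143, against 549, 435 and 480 CPM with DMSO (−0.52 ± 0.22, adjusted p = 0.145). FAT4 had 15.9, 17.8 and 25.5 CPM with SWTX-143, against 29.4, 21.6 and 26.6 CPM with DMSO (−0.40 ± 0.23, adjusted p = 0.258). Here SWTX-143 replicate 3 lay within the DMSO range for both genes while replicates 1 and 2 lay below it. Without that library FAT1 was at −0.74 (adjusted p = 0.0171) and FAT4 at −0.63 (adjusted p = 5.72e-08). FAT4 was also called with the replicate number as a block (adjusted p = 0.0291) and with no filter (0.00111). The effect in H226 minus that in ACHN was 0.01 ± 0.23 for FAT1 (adjusted p = 1) and 0.12 ± 0.25 for FAT4 (adjusted p = 0.832), and misses of this size do not show that the effects are alike.

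Both FAT transcripts are long, so the genes with transcripts over 12000 bases were set beside them. Relative to the DMSO mean of the line, the median log2 of 261 such genes was −0.05, −0.09 and 0.12 in H226 SWTX-143 replicates 1 to 3, and 0.08, −0.10 and 0.01 in the DMSO libraries. FAT1 was at −0.68, −0.78 and −0.15 in the same SWTX-143 libraries. In ACHN the median of 267 long genes was −0.08, −0.06 and −0.03 with SWTX-143 and −0.03, 0.02 and 0.01 with DMSO, and FAT1 was at −0.48, −0.56 and −0.51 with SWTX-143. The library with the highest FAT1 among the treated H226 samples was thus also the one in which long transcripts were highest, and the part of transcript length in the FAT1 value was not tested.

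**Figure D4:**
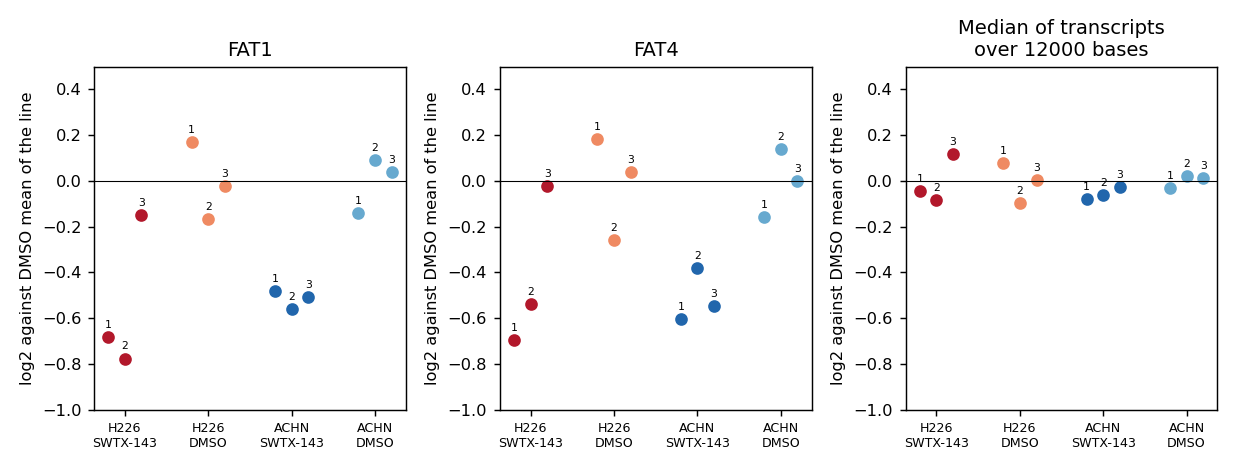
Log2 of each library against the DMSO mean of its line (values in CPM plus 0.25) for FAT1, FAT4 and the median of genes with transcripts over 12000 bases. Each point is a library, labelled with its replicate number, and SWTX-143 is left of DMSO. FAT1 and FAT4 in ACHN SWTX-143 lie between −0.38 and −0.60, and H226 SWTX-143 replicate 3 lies above its 2 companions in all 3 panels.

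Among the listed partners of FAT and Dachsous, 0 of 11 tested were called higher and 8 lower in H226, with a median log2 fold change of −0.25. Over all tested genes in H226 19% were called higher and 21.6% lower, with a median of −0.00. In ACHN 0 of 11 were higher and 3 lower, with a median of −0.08, against 8.43% and 9.37% of all genes and a median of 0.00. At an unadjusted p under 0.05, and by DESeq2, the number higher was 0 in both lines as well. FJX1, the human relative of fly four-jointed, fell in both lines, with 18.0 ± 0.623 CPM in SWTX-143 and 36.7 ± 2.16 CPM in DMSO in H226 (−1.03 ± 0.08, adjusted p = 4.31e-16). In ACHN it had 49.4 ± 5.80 CPM in SWTX-143 and 87.9 ± 2.36 CPM in DMSO (−0.84 ± 0.06, adjusted p = 1.54e-16). In H226 the polarity scaffold SCRIB (−0.30 ± 0.05), the Hippo kinase STK4 (−0.25 ± 0.05) and the scaffold HOMER1 (−0.59 ± 0.14) were also called lower. In ACHN the polarity protein MPP5 (−0.35 ± 0.05) and the actin regulator ENAH (−0.16 ± 0.04) were.

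In H226, 14 of the 21 clustered protocadherins tested by edgeR were called higher with SWTX-143. DESeq2, which was run without that low-count filter, called 4 higher, against 1665 of 19672 genes. By either test 0 were called lower, and PCDHGC3 was the 1 lower at an unadjusted p under 0.05. The 14 were 2 of 4 tested alpha genes, 4 of 5 beta genes and 8 of 12 gamma genes, against 19% of all tested genes called higher. Of the 14, 6 had fewer than 3 DMSO libraries at the cutoff of the low-count filter, so these counts are a description and do not by themselves support a direction. The summed levels cover every gene of a cluster, whether or not it passed the filter. The 22 gamma genes together had 76.5, 73.9 and 76.5 CPM with SWTX-143, against 65.3, 60.0 and 60.9 CPM with DMSO. The 16 beta genes had 27.1, 28.7 and 24.8 CPM with SWTX-143, against 18.0, 16.4 and 18.8 CPM with DMSO. The 15 alpha genes had 19.6, 19.2 and 17.8 CPM with SWTX-143, against 14.8, 14.1 and 15.0 CPM with DMSO. In each of the 3 clusters every treated library lay above every DMSO library, and reads of the shared exons enter the alpha and gamma sums by an unknown rule.

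Only 35 of the 93 members were tested in H226, and some passed the filter only through their treated libraries. All genes with at least 10 pooled counts over the 2 groups of H226 were therefore counted as well. The treated mean was the higher one for 46 of 62 members (74.2%), 30 of 37 clustered protocadherins, 15 of 18 gamma genes and 11 of 13 beta genes. Over all 15873 such genes the share was 52.6%. All 3 treated libraries lay above all 3 DMSO libraries for 24 of the 62 members (38.7%) and 16 of the 37 clustered ones, against 22.0% of all genes, and 0 of the 37 lay below.

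**Figure D5:**
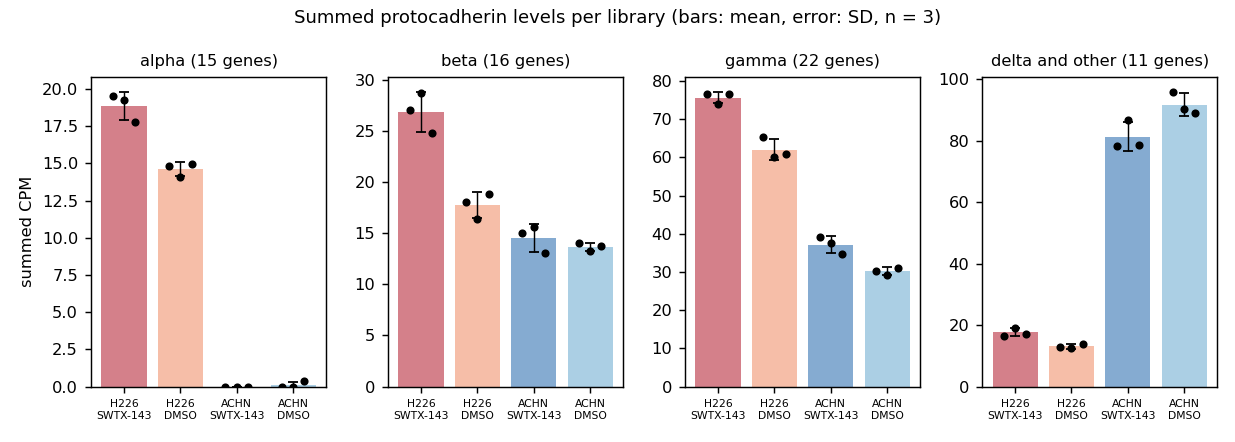
Summed CPM of the alpha, beta, gamma and non-clustered protocadherins in each library; bars are group means from 0, error bars SD over 3 libraries and points libraries, with SWTX-143 left of DMSO in each line. The alpha, beta and gamma sums are higher with SWTX-143 in H226, the gamma sum is higher in ACHN, the beta sum overlaps in ACHN, and the alpha sum is at or near 0 there.

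PCDHAC2 was the most abundant alpha gene, with 13.8, 13.1 and 11.5 CPM in SWTX-143-treated H226, against 8.68, 8.94 and 8.70 CPM in DMSO (0.54 ± 0.12, adjusted p = 0.000254). The other called alpha gene was PCDHA10, whose 1.18, 2.32 and 1.69 CPM with SWTX-143 overlapped its 1.23, 0.571 and 0.991 CPM with DMSO (0.89 ± 0.35, adjusted p = 0.0332) and which reached the filter's cutoff in 2 of 3 DMSO libraries. Among the beta genes, which are single-exon genes, PCDHB13 had 3.95, 3.16 and 3.75 CPM with SWTX-143, against 1.98, 1.62 and 1.87 CPM with DMSO (0.97 ± 0.24, 1.96-fold, adjusted p = 0.0006). PCDHB2 had 7.01, 8.92 and 6.18 CPM with SWTX-143, against 4.72, 4.85 and 6.49 CPM with DMSO (0.47 ± 0.16, adjusted p = 0.0171), and the groups overlapped. PCDHB5 was called at 0.81 ± 0.29 (adjusted p = 0.0237), with 2.57, 1.77 and 2.53 CPM with SWTX-143 and 1.79, 0.951 and 1.10 CPM with DMSO, and its groups overlapped as well, with 2 of 3 DMSO libraries at the filter's cutoff. PCDHB9 was called at 1.63 ± 0.45 (adjusted p = 0.00243) on 40 pooled counts with SWTX-143 and 12 with DMSO, and it had passed the filter only through the treated libraries.

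Of the gamma genes, PCDHGB7 had 10.5, 9.11 and 10.6 CPM in SWTX-143-treated H226, against 6.60, 5.99 and 6.82 CPM in DMSO (0.63 ± 0.14, 1.54-fold, adjusted p = 0.000163). PCDHGA10 had 9.78, 10.04 and 7.30 CPM with SWTX-143, against 5.28, 7.71 and 6.38 CPM with DMSO (0.47 ± 0.15, adjusted p = 0.00863). PCDHGA6 had 5.73, 4.28 and 4.78 CPM with SWTX-143, against 3.77, 2.57 and 3.08 CPM with DMSO (0.63 ± 0.20, adjusted p = 0.0072). The groups were separate for PCDHGB7 and PCDHGA6 and overlapped for PCDHGA10. PCDHGB2 had 2.57, 3.44 and 2.90 CPM with SWTX-143, against 1.89, 2.19 and 1.21 CPM with DMSO (0.72 ± 0.25, adjusted p = 0.018). PCDHGB6 had 2.57, 2.97 and 2.06 CPM with SWTX-143, against 1.51, 1.43 and 1.10 CPM with DMSO (0.89 ± 0.28, adjusted p = 0.00787). Neither overlapped. PCDHGB1, PCDHGA4 and PCDHGA11, all under 2 CPM on average, were called at log2 fold changes of 0.87, 0.92 and 1.42. PCDHGB1 and PCDHGA4 reached the filter's cutoff in 1 DMSO library each and PCDHGA11 in 0.

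PCDHGC3, the gamma gene of highest level, did not share this direction in H226, with 26.2, 23.3 and 24.2 CPM with SWTX-143, against 28.4, 26.0 and 28.1 CPM with DMSO (−0.17 ± 0.08, adjusted p = 0.0823). It was the 1 tested gamma gene of 12 with a negative estimate. Of these 12, PCDHGA11 reached the filter's cutoff in 0 DMSO libraries and PCDHGA2, PCDHGB1 and PCDHGA4 in 1 each, so this count is a description. Among the 18 gamma genes with at least 10 pooled counts, tested or not, 15 had the higher mean with SWTX-143. The calls on low counts depended on the test and the libraries: DESeq2 called 1 gamma, 2 beta and 1 alpha gene (PCDHGB7, PCDHB9, PCDHB13 and PCDHAC2), and leaving out a library gave 4 to 8 gamma, 2 to 4 beta and 1 to 2 alpha genes, against 8, 4 and 2. The 11 calls that DESeq2 did not make were PCDH1, PCDHA10, PCDHB2, PCDHB5 and 7 of the 8 gamma genes.

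In ACHN the gamma cluster was also higher in sum with SWTX-143, with 1 gene called. The 22 gamma genes together had 39.1, 37.6 and 34.8 CPM with SWTX-143, against 30.3, 29.3 and 31.1 CPM with DMSO, and the groups did not overlap. PCDHGA7, the called gene, had 8.35, 8.09 and 7.69 CPM with SWTX-143, against 5.59, 5.39 and 5.29 CPM with DMSO (0.55 ± 0.14, 1.47-fold, adjusted p = 0.00337), and DESeq2 gave an adjusted p of 0.0544. PCDHGC3 had 25.9, 24.3 and 23.2 CPM with SWTX-143, against 20.97, 21.3 and 22.3 CPM with DMSO (0.17 ± 0.08, adjusted p = 0.156). With at least 10 pooled counts, 7 of 8 gamma genes had the higher mean with SWTX-143 and 5 of the 8 had all treated libraries above all DMSO libraries, against 54.2% and 16.4% of all genes. The beta sums overlapped, at 15.0, 15.6 and 13.0 CPM with SWTX-143 and 14.01, 13.3 and 13.7 CPM with DMSO, and 0 of 4 tested beta genes were called by edgeR, by DESeq2 or at an unadjusted p under 0.05.

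Of the non-clustered protocadherins, PCDH1 and PCDH9 were called higher in H226 and PCDH20 lower in ACHN. PCDH1, a delta protocadherin of epithelia, had 5.53, 6.32 and 5.34 CPM with SWTX-143 in H226, against 3.11, 3.81 and 4.51 CPM with DMSO (0.59 ± 0.18, adjusted p = 0.00588). PCDH9, another delta protocadherin, had 1.48, 1.86 and 2.34 CPM with SWTX-143, against 0.944, 0.666 and 0.550 CPM with DMSO (1.36 ± 0.35, adjusted p = 0.0012), and passed the filter only through the treated libraries. In both cases the groups did not overlap. PCDH20 had 68.1, 76.9 and 69.5 CPM with SWTX-143 in ACHN, against 87.4, 81.2 and 79.4 CPM with DMSO (−0.23 ± 0.05, adjusted p = 0.00138), with the same doubt about AL592490.1 as at baseline.

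The test of the difference between lines called 6 of 46 members, 3 with a positive and 3 with a negative value of the H226 effect minus the ACHN effect. Over all 14664 tested genes 15.6% were called, 5.89% positive and 9.7% negative, a split of 863 and 1423 genes that was 1159 and 1045 with upper-quartile scaling. The difference for CDH1 was −1.43 ± 0.23 (adjusted p = 1.21e-06), with CDH1 called lower in H226 and not called in ACHN. For CDH24 it was 0.36 ± 0.11 (adjusted p = 0.018), and for PCDHGC3 −0.35 ± 0.11 (adjusted p = 0.026), each with estimates of opposite sign in the lines. The PCDHGC3 call was lost in 11 alternatives, among them upper-quartile scaling (adjusted p = 0.0584), no filter (0.0686) and DESeq2 (0.132). The CDH24 call was lost under DESeq2 (0.057) and, by edgeR's test, without ACHN SWTX-143 replicate 2 (0.073) or ACHN DMSO replicate 2 (0.0898). For PCDH9 it was 1.67 ± 0.46 (adjusted p = 0.00548). The remaining calls, CDH11 and CDH6, rest on 0 and 7 and on 19 and 7 pooled counts in ACHN with SWTX-143 and DMSO. CDH4, lower in H226, was just outside the limit (−0.27 ± 0.10, adjusted p = 0.0519).

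The catenins and other binders of the cadherin tail moved in both directions, with 3 of 12 tested called higher and 4 lower in H226 (median −0.02), and 3 higher and 3 lower in ACHN (median 0.04). Over all tested genes 40.7% were called in H226 and 17.8% in ACHN. JUP (plakoglobin), a catenin of junctions and desmosomes, rose in H226, with 92.3 ± 1.11 CPM in SWTX-143 and 47.8 ± 1.27 CPM in DMSO (0.94 ± 0.06, adjusted p = 8.69e-21). It also rose in ACHN, with 64.7 ± 3.79 CPM in SWTX-143 and 47.2 ± 1.91 CPM in DMSO (0.44 ± 0.06, adjusted p = 4.74e-08), and the difference of 0.49 between lines was called (adjusted p = 1.83e-06). PKP4, a p120-related catenin, fell in H226 (−0.58 ± 0.04) and ACHN (−0.23 ± 0.04), and the actin binder LIMA1 fell in H226 (−0.60 ± 0.04). PLEKHA7, which tethers microtubules to the junction, fell in H226 (−0.84 ± 0.07) and rose in ACHN (0.61 ± 0.13), and the difference of −1.46 was called (adjusted p = 8.51e-14). ADAM10, a protease that sheds cadherin ectodomains, fell in ACHN (−0.18 ± 0.04). CTNNB1 (beta-catenin), named after its values were seen, had 382 ± 12.2 CPM in SWTX-143 and 373 ± 9.12 CPM in DMSO in H226 and was not called.

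The transcription factors known to switch cadherins had 0 of 8 tested called higher and 1 lower in H226 (TCF3, −0.20 ± 0.05) and 0 of 5 called in ACHN by edgeR or DESeq2, with 1 at an unadjusted p under 0.05. The genes that set protocadherin promoter use, CTCF, cohesin and silencing factors, had 1 of 11 tested higher and 4 lower in H226 (median −0.09) and 0 higher and 2 lower in ACHN (median −0.05). Taken over both directions, the counts of these promoter regulators lay near the shares of all tested genes called, 40.7% in H226 and 17.8% in ACHN. The calls among the cadherin-switch factors, 1 of 8 in H226 and 0 of 5 in ACHN, lay below these shares, on few genes. In H226 the cohesin subunits SMC1A (−0.35 ± 0.05) and SMC3 (−0.26 ± 0.05) and the silencing factor SMCHD1 (−0.28 ± 0.05) were called lower, and the cohesin subunit STAG2 (0.18 ± 0.05) higher. In ACHN SMC1A (−0.14 ± 0.04) and SMCHD1 (−0.16 ± 0.05) were called lower.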

How the data were processed

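The 12 poly(A) RNA libraries, 3 per line and treatment, were analysed from the read counts per gene symbol that the authors deposited, 1 table per line with the same 27064 symbols. FastQC, cutadapt, the aligner STAR 2.6.1d and the build hg19 (GRCh37) are named in the submitters' processing notes, without roles or settings. How reads were counted, with which strand setting, multi-mapping rule and annotation, is not given in the sources used here, so reads of overlapping genes and shared exons cannot be assigned. GENCODE 29 (GRCh38) served only for exon lengths and overlaps, and RefSeq (GRCh38.p14) for promoters, with 71 of 93 members matched by symbol.

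Each line was fitted with edgeR 4.0.16 in R 4.3.3: filterByExpr, TMM scaling, robust quasi-likelihood F tests of SWTX-143 against DMSO, and Benjamini-Hochberg adjustment over all tested genes, with 0.05 as the limit. A joint fit of the 12 libraries gave the difference between lines and the baseline contrast of the DMSO groups. SE came from the log2 fold change divided by the root of F. CPM used TMM effective library sizes of the joint table, and levels per length divided CPM by the union of exons. Alternatives were RLE and upper-quartile scaling, no filter, DESeq2 1.42.0, the replicate number as a block, each library left out, and other gene lengths. The tests were tried on simulated counts. Counts of 3 over a group served as the floor, which covers counting error only.

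The members, gene lists and marker lists were chosen with earlier results of these data known. Named were members called in any comparison; per-library values were given for those called under SWTX-143 with at least 2 CPM in some group, and uncalled clustered genes by count. Beyond this rule, per-library values were also given for PCDHA10 and PCDH9, called at under 2 CPM on average, and for some members not called under SWTX-143, such as CDH2. Partner genes were the called ones, up to 4 per list and line by smallest p. Where a gene outside this rule was picked for its values, the text says so.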

Additional observations from a re-analysis of the deposited data

Results flagged for a closer look

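In the joint edgeR fit, the effect of SWTX-143 was called different between the lines for 6 of 46 tested members (13.0%). Over all 14664 tested genes the share was 15.6%, so the count does not set these members apart. Values are the log2 effect in H226 minus that in ACHN.

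CDH1 differed by −1.43 ± 0.23 (adjusted p = 1.21e-06), with a log2 effect of −1.44 in H226 at 1.40 CPM with SWTX-143 and 3.78 CPM with DMSO, and of −0.02 in ACHN at 155 CPM in both. CDH11 differed by 4.77 ± 1.15 (adjusted p = 0.00484), but ACHN had 0 pooled counts with SWTX-143 and 7 with DMSO, so the size of this value depends on the prior count. Without ACHN DMSO replicate 1 the adjusted p for CDH11 was 0.0561. CDH6 differed by −1.76 ± 0.55 (adjusted p = 0.0208), with 19 pooled ACHN counts with SWTX-143 and 7 with DMSO, and its adjusted p was 0.0624 without ACHN DMSO replicate 2, 0.0727 without ACHN DMSO replicate 3 and 0.124 without ACHN SWTX-143 replicate 2.

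PCDH9 differed by 1.67 ± 0.46 (adjusted p = 0.00548), with 60 and 22 pooled counts with SWTX-143 and DMSO in H226 and 54 and 65 in ACHN. CDH24 differed by 0.36 ± 0.11 (adjusted p = 0.018), a call lost under DESeq2 (0.057), without ACHN DMSO replicate 2 (0.0898) and without ACHN SWTX-143 replicate 2 (0.073). PCDHGC3 differed by −0.35 ± 0.11 (adjusted p = 0.026), and the call was lost in 11 of the alternatives, with adjusted p up to 0.136.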

How the results depend on the processing

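No called value of a named member changed sign under any alternative run, while estimates that were not called crossed 0 for CDH1 in ACHN and for CDH3, CDH16, FAT1 and FAT4 in the difference. Of the settings tried on single members, 23 ended a call and 5 added one in H226, 7 and 0 in ACHN, 18 and 5 in the difference, and 0 and 0 at baseline. With DESeq2 the members called fell to 12 in H226 (8 higher), to 4 in ACHN (1 higher), and to 3 in the difference (1 higher). Its calls over all genes fell too, to 1665 higher and 2093 lower in H226, 602 and 814 in ACHN, and 648 and 854 in the difference. Leaving out each library gave 17 to 23 called members in H226 (13 to 18 higher, 4 to 6 lower), 5 to 7 in ACHN (2 to 3 higher, 3 to 4 lower), 5 to 7 in the difference (2 to 5 higher, 1 to 4 lower, with 5 and 1 without ACHN DMSO replicate 2), and 44 to 48 at baseline (29 to 32 higher, 15 to 16 lower). Over all genes, the split of calls in the difference (863 higher, 1423 lower) was 1017 and 1179 under RLE and 1056 and 1061 with no filter. At least 1 CPM per kb was reached by 16 members in H226 DMSO with the longest transcript as length and by 18 with unshared exon bases only, a length chosen after seeing the data, against 13, and by 12 in ACHN DMSO with either, against 11. Depth limits what can be seen of the lowest members, since 3 pooled counts correspond to 0.0884 to 0.0994 CPM.

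Same-numbered libraries did not deviate together: the correlations of their deviations were −0.05, 0.13 and 0.09 in H226 and −0.13, −0.11 and −0.02 in ACHN. With the replicate number as a block 24 members were called in H226 (FAT4 and PCDHB14 added), 6 in ACHN, 7 in the difference and 44 at baseline.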

Other observations

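Other junction genes were listed beside the members. Of the desmosomal genes, 2 of 6 tested were called higher and 1 lower in H226, and 0 of 4 higher and 1 lower in ACHN. The shares of all tested genes called were 40.7% in H226 and 17.8% in ACHN. PKP2, a desmosomal plaque protein, fell in H226 with 223 ± 3.22 CPM in SWTX-143 and 408 ± 12.8 CPM in DMSO (−0.88 ± 0.04, edgeR adjusted p = 4.7e-25), and in ACHN with 85.7 ± 1.59 CPM in SWTX-143 and 142.9 ± 5.74 CPM in DMSO (−0.75 ± 0.05, adjusted p = 2.56e-19). The desmosomal cadherins DSG2 (0.28 ± 0.05) and DSC3 (0.11 ± 0.04) rose in H226.

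Of the remaining cadherin superfamily, 5 of 7 tested were called higher and 1 lower in H226, and 1 of 8 higher and 1 lower in ACHN. Among all tested genes 19% were called higher and 21.6% lower in H226, and 8.43% and 9.37% in ACHN. The calsyntenin CLSTN3 rose in H226, with 212 ± 7.40 CPM in SWTX-143 and 152 ± 10.5 CPM in DMSO (0.47 ± 0.05, adjusted p = 5.29e-12), and in ACHN, with 62.6 ± 6.29 CPM in SWTX-143 and 51.1 ± 4.35 CPM in DMSO (0.28 ± 0.07, adjusted p = 0.00204). CDHR4 (1.22 ± 0.26), CLSTN1 (0.17 ± 0.04) and the planar polarity cadherin CELSR2 (0.27 ± 0.07) also rose in H226, and CELSR1, of the same polarity family, was higher in H226 (0.21 ± 0.06, adjusted p = 0.00168) and lower in ACHN (−0.18 ± 0.04, adjusted p = 0.000767), with a called difference of 0.39 (adjusted p = 1.59e-05). The summed endothelial markers were 150 to 164 CPM with SWTX-143 and 218 to 229 CPM with DMSO in H226, where KDR was the 1 gene of that list tested and was called lower (−0.52).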
